A study of Mus musculus with 6 samples.

Results

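The natriuretic peptide system was followed in hearts that had lost MRPS5, a component of the mitochondrial ribosome. Its 8 genes were picked by name, with earlier results of these data known. They were the peptide genes Nppa, Nppb and Nppc, the convertase genes Corin and Furin, and the receptor genes Npr1, Npr2 and Npr3, out of 54532 genes in the table. Of these, 7 passed the filter on low values (0.5 FPKM or more on average across the 6 hearts) and were tested among 12944 genes, and Nppc did not. FPKM is the number of fragments per kilobase of gene, scaled to library size.

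Natriuretic peptides are hormones that the heart muscle secretes when it is stretched or overloaded. Atrial natriuretic peptide (from Nppa) and B-type natriuretic peptide (from Nppb) are made as larger precursors that convertases cut, and C-type natriuretic peptide (from Nppc) is best known as a local signal of vessels and growing bone. Peptide binding to the guanylyl cyclase receptors encoded by Npr1 and Npr2 raises cyclic GMP, which promotes sodium excretion, vessel relaxation and restraint of muscle growth, whereas the Npr3 receptor mainly removes peptides. Nppa is strongly expressed in the atria, and both Nppa and Nppb are widely used markers of ventricular stress.

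The study compared 3 Ctrl with 3 cKO mouse hearts by poly-A RNA sequencing, 1 library per heart. Ctrl mice were Mrps5 fl/fl, with both alleles flanked by loxP sites. The cKO mice were Mrps5 fl/fl; MCM, and MCM is αMHC-MerCreMer, a Cre recombinase that tamoxifen switches on in cardiomyocytes, so other cells of the heart keep the gene. Every mouse, Ctrl included, had received tamoxifen intraperitoneally at 45 mg/kg/day on 5 successive days at 8 weeks of age, and hearts were taken 12 weeks afterwards. No group with MCM alone was analysed here, so loss of Mrps5 and presence of the transgene cannot be told apart. The labels call the tissue heart, whereas the study's methods describe ventricular RNA. The methods also give the mice as 12 weeks old at harvest, which conflicts with the ages in the labels followed here.

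Libraries held 15989322 to 24875499 reads on genes. Mrps5 was 5.20, 6.45 and 6.33 FPKM in Ctrl and 1.12, 1.23 and 1.31 FPKM in cKO, which left 20.4% of the Ctrl mean (limma adjusted p = 0.000202). The cKO replicate 2 heart stood apart in that 4 Y-linked genes were at 0, while they averaged over 1 FPKM in the other 5 hearts. The study states that only male mice were used, which conflicts with these values of cKO replicate 2. That heart also had the highest Nppb (3352 FPKM), and a part of sex in this was not tested. Atrial markers were unevenly present, with sums over 8 genes of 1083, 173 and 50.6 FPKM in Ctrl replicates 1, 2 and 3 and of 123, 244.5 and 798 FPKM in the cKO replicates, and their values are given again beside the peptides. A smaller RNA level in a whole heart can reflect fewer cells of a type or less RNA per cell, and bulk tissue does not separate these.

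Nppb and Nppa lie next to each other on chromosome 4 in the same orientation, Nppb at 147985788 to 147987205 and Nppa at 148000722 to 148002079, with 13516 bases between them. The 250 bases before the RefSeq start of each gene (GRCm38.p6) are printed because these neighbours differed in how clearly they separated the groups. The Nppa stretch is chr4:148000472-148000721 and the Nppb stretch chr4:147985650-147985899, both on the plus strand. The Nppb gene as the table places it begins at 147985788, inside the latter stretch and before all of its marked letters. Capitals mark the letters TGATAA and AGATAA (bound by GATA factors), TGAAGTG (NKX2-5), TCACACC (T-box factors), CATTCC on either strand (TEAD factors) and TATAAA (the TATA box).
Nppa: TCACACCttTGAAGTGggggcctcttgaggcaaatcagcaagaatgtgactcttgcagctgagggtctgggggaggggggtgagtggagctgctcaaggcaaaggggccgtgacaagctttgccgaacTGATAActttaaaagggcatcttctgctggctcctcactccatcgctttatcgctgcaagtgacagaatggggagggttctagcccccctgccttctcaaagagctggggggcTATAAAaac
Nppb: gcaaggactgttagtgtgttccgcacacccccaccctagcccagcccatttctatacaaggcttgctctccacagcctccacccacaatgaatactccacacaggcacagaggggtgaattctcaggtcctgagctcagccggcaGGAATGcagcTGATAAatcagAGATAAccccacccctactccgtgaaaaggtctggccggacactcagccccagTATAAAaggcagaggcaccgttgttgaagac
The Nppa promoter holds TCACACC at -250 to -244, TGAAGTG at -241 to -235, TGATAA at -122 to -117 and TATAAA at -9 to -4, counted from the RefSeq start. The Nppb promoter holds CATTCC on the opposite strand at -105 to -100, TGATAA at -95 to -90, AGATAA at -84 to -79 and TATAAA at -31 to -26. Such letters are common. Of 32851 mouse promoters of this length searched on both strands, TGATAA is in 7.94%, AGATAA in 9.99%, TGAAGTG in 3.31%, TCACACC in 3.33%, CATTCC in 12.6% and TATAAA in 12.4%. Neither promoter holds an exact CArG box (CCWWWWWWGG, with W for A or T), which is in 1.47% of promoters. Near matches were not searched, and the Nppa stretch has CTTTAAAAGG, a near match, directly after TGATAA. Among the other members only TATAAA was found, in a promoter of Nppc and of Furin. A match of letters is a description and does not show that a factor was bound.

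Of the peptide genes, Nppb rose in the cKO hearts, Nppa varied too widely within the groups to pass the test, and Nppc was barely transcribed. Both convertase genes and the cyclase receptor genes Npr1 and Npr2 fell, each to between 60.4% and 74.7% of the Ctrl mean, and Npr3 did not pass the test. Thus 1 of the 7 tested members was higher and 4 were lower at a limma adjusted p under 0.05. In the background of all 12944 genes, 33.3% passed in either direction, 16.3% as higher and 17% as lower, so calls of either direction were common in these hearts. That split depended on scaling. With each heart scaled to its summed FPKM without mtDNA-encoded genes, 2110 higher and 2205 lower calls became 2649 and 1621. This also replaced the scaling between samples made before deposit, so the part of the mtDNA-encoded genes was not tested. The median log2 fold change, on the log2(FPKM + 1) scale used for every fold change here, was -0.64 for the convertases and -0.37 for the receptors, and -0.02 for all genes tested.

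**Figure D1:**
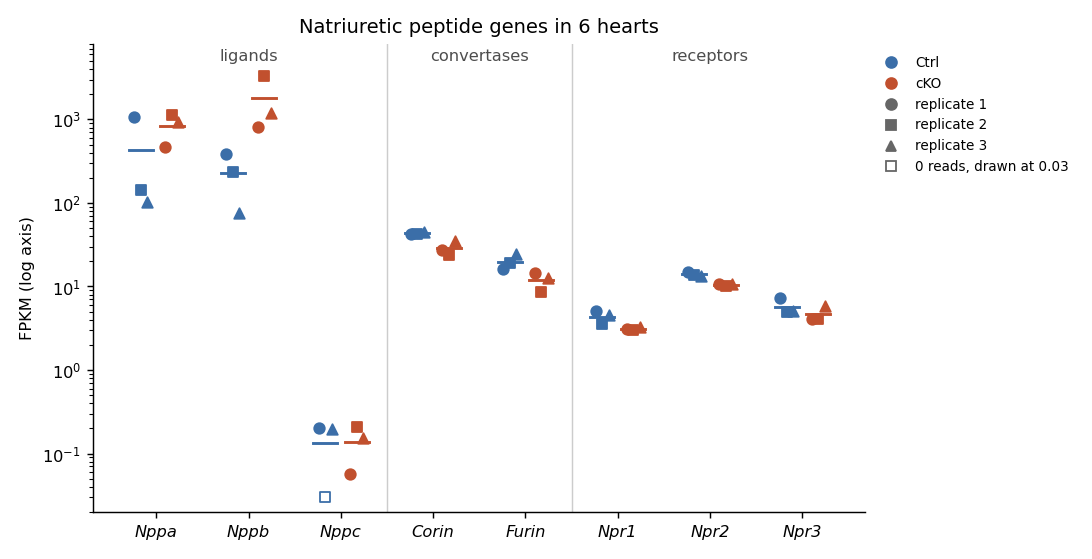
FPKM of the 8 members in each heart (log axis), Ctrl and cKO side by side, with a symbol for each heart, a short line for each group mean and an open symbol, placed at the foot of the axis, for the heart with 0 reads of Nppc. Nppb, Corin, Furin, Npr1 and Npr2 show no overlap between the groups, whereas for Nppa the Ctrl replicate 1 heart (1062 FPKM) lies among the cKO hearts.

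Nppb encodes B-type natriuretic peptide. In Ctrl replicates 1, 2 and 3 its level was 385, 233 and 75.2 FPKM, from 5734, 3791 and 1420 reads. In the cKO replicates it was 800.4, 3352 and 1203 FPKM, from 10581, 61127 and 23625 reads. Every cKO heart was above every Ctrl heart, and both groups were spread widely, with cKO replicate 2 far above the others and Ctrl replicate 3 far below. The means were 231 ± 155 and 1785 ± 1372 FPKM (SD, n = 3 each), 7.72-fold higher in cKO. The fitted log2 fold change came to 2.96 (standard error 0.71, 95% confidence interval 1.285 to 4.63, limma adjusted p = 0.0192). Without cKO replicate 2 it was 2.37 and without Ctrl replicate 3 it was 2.30, and Nppb passed the threshold in every fit that left out 1 heart. With no filter on low values it missed it (limma adjusted p = 0.0581 over 26855 genes).

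Nppa encodes atrial natriuretic peptide. Its level was 1062, 144 and 103 FPKM in Ctrl replicates 1, 2 and 3, from 17521, 2596 and 2147 reads. In the cKO replicates it was 469, 1127 and 938 FPKM, from 6870, 22766 and 20410 reads. The groups overlapped, because Ctrl replicate 1 was above cKO replicates 1 and 3, while Ctrl replicates 2 and 3 were below all cKO hearts. The means were 436 ± 542.5 and 845 ± 339 FPKM (SD, n = 3 each). The log2 fold change of 1.65 had a confidence interval from -0.36 to 3.67 and missed the threshold (standard error 0.85, limma adjusted p = 0.176). Leaving out Ctrl replicate 1 gave 2.69 (limma adjusted p = 0.00932), and leaving out any other single heart gave 1.01 to 2.03 with no call.

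The Ctrl heart with high Nppa was also the heart with the most atrial marker RNA. Its summed atrial markers were 1083 FPKM, and those of cKO replicate 3, the next in order, were 798 FPKM. Myl7, the atrial myosin light chain, was 679, 98.6 and 18.15 FPKM in the Ctrl and 71.8, 170 and 495 FPKM in the cKO replicates. Of the 8 markers none was higher in cKO and Kcnj3, an atrial potassium channel subunit, was lower (limma adjusted p = 0.0223, lost without Ctrl replicate 1 or 3 or cKO replicate 1 or 2), and none was at 0 in all hearts. The mean sums differed by -47.0 FPKM (cKO minus Ctrl), far less than the spread between hearts (exact permutation test, two-sided, p = 0.9, where 3 against 3 hearts allow no p below 0.1). The ratio of Nppa to Myl7 was 1.57, 1.46 and 5.65 in Ctrl and 6.535, 6.64 and 1.895 in cKO, so Ctrl replicate 3 stood with the cKO hearts and cKO replicate 3 with the Ctrl hearts.

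With the atrial marker level of each heart as a covariate, the log2 fold change was 1.49 for Nppa (limma adjusted p = 0.0789) and 2.87 for Nppb (limma adjusted p = 0.0233). Leaving out Ctrl replicate 1 and cKO replicate 3 together, an alternative chosen after seeing the data, gave 2.57 for Nppa (limma adjusted p = 0.0275) and 3.62 for Nppb (limma adjusted p = 0.0495). Nppb therefore passed the threshold with and without the hearts rich in atrial markers, and Nppa did so only where Ctrl replicate 1 was left out. The ratio of Nppb to Nppa was 0.3625, 1.62 and 0.732 in the Ctrl hearts and 1.71, 2.97 and 1.28 in the cKO hearts, which overlapped between cKO replicate 3 and Ctrl replicate 2.

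**Figure D2:**
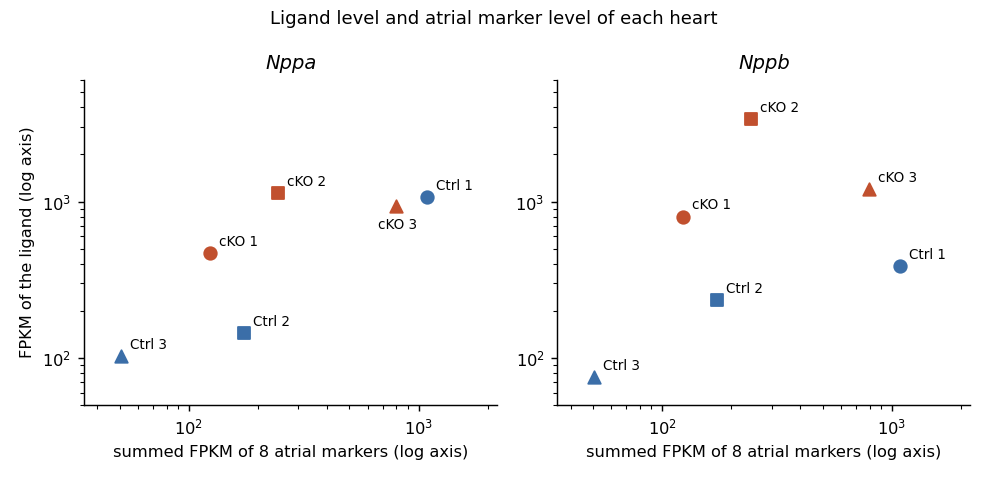
FPKM of Nppa and of Nppb (y axis, log) against the summed FPKM of 8 atrial markers (x axis, log), 1 point per heart. Ctrl replicate 1 has the highest atrial sum (1083 FPKM) and an Nppa level within the cKO range, while its Nppb level (385 FPKM) is below that of all 3 cKO hearts.

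Nppc, the gene of C-type natriuretic peptide, gave 4, 0 and 5 reads in the Ctrl and 1, 5 and 4 reads in the cKO hearts. Its level was 0.201, 0 and 0.198 FPKM in Ctrl and 0.0567, 0.2055 and 0.153 FPKM in cKO. The count of 0 in Ctrl replicate 2 allows up to 0.138 FPKM (3 counts). The group totals were 9 reads (exact Poisson 95% interval 4.12 to 17.1) and 10 reads (4.795 to 18.4), intervals that cover counting error only. A difference in Nppc was not detectable at this depth.

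Corin encodes the membrane-bound serine protease of cardiomyocytes that activates the atrial peptide precursor. Its level was 42.9, 42.2 and 45.3 FPKM in the Ctrl and 27.15, 23.9 and 35.3 FPKM in the cKO replicates, with no overlap. Ctrl hearts were tightly grouped, with a coefficient of variation of 3.7%, against 20.4% in cKO. The mean dropped to 66.3% of Ctrl, from 43.4 ± 1.61 to 28.8 ± 5.86 FPKM (SD, n = 3 each), and the fitted log2 fold change came to -0.59 (standard error 0.14, limma adjusted p = 0.0172). The call was lost, with limma adjusted p = 0.0598 and 0.0524, when Ctrl replicate 3 or cKO replicate 1 was left out.

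Furin encodes a widely expressed convertase of the secretory pathway that can cut the B-type and C-type precursors. Its level was 16.2, 19.1 and 24.3 FPKM in the Ctrl and 14.7, 8.665 and 12.7 FPKM in the cKO replicates. All cKO hearts were below all Ctrl hearts, although Ctrl replicate 1 and cKO replicate 1 lay close together. The mean dropped to 60.4% of Ctrl, from 19.9 ± 4.10 to 12.0 ± 3.06 FPKM (SD, n = 3 each), and the fitted log2 fold change came to -0.69 (standard error 0.21, limma adjusted p = 0.0420). Without Ctrl replicate 2, Ctrl replicate 3, cKO replicate 2 or cKO replicate 3 the limma adjusted p was 0.0973, 0.121, 0.0721 and 0.0742. With the atrial covariate it was 0.0559, at a log2 fold change of -0.67, with scaling that left out mtDNA-encoded genes 0.0682 and with no filter 0.104.

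Npr2, the cyclase receptor that prefers C-type natriuretic peptide, was the most abundant receptor gene per length in both groups. Its level was 15.1, 13.7 and 13.3 FPKM in the Ctrl and 10.8, 10.1 and 10.6 FPKM in the cKO replicates. The groups were well separated and narrow. The mean dropped to 74.7% of Ctrl, from 14.05 ± 0.934 to 10.5 ± 0.366 FPKM (SD, n = 3 each), and the fitted log2 fold change came to -0.39 (standard error 0.07, limma adjusted p = 0.00924). Npr2 kept its call without any single heart and lost it without Ctrl replicate 1 and cKO replicate 3 together (limma adjusted p = 0.0878). The predicted gene Gm12473, on the opposite strand, overlaps Npr2 and was also lower (12.5 ± 0.5695 against 9.99 ± 1.096 FPKM, limma adjusted p = 0.0455, called under 3 of 15 alternatives), and whether counting used strand is not stated, so their reads may not be told apart.

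Npr1 encodes the cyclase receptor of the atrial and B-type peptides. Its level was 5.04, 3.52 and 4.503 FPKM in the Ctrl and 3.10, 2.98 and 3.28 FPKM in the cKO replicates. The groups did not overlap, but Ctrl replicate 2 came close to cKO replicate 3. The mean dropped to 71.7% of Ctrl, from 4.355 ± 0.774 to 3.12 ± 0.152 FPKM (SD, n = 3 each), and the fitted log2 fold change came to -0.37 (standard error 0.12, limma adjusted p = 0.0474). Among the called members Npr1 was nearest to the threshold. It lost its call without any 1 heart except Ctrl replicate 2. The limma adjusted p was then 0.127 and 0.128 without Ctrl replicate 1 and 3, and 0.105, 0.1001 and 0.0833 without cKO replicate 1, 2 and 3. The call was also lost with either other scaling, with no filter and with the atrial covariate (limma adjusted p = 0.0542 to 0.126). With that covariate the log2 fold change was -0.38, about as large as without it.

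Npr3 encodes the clearance receptor. Its level was 7.18, 4.885 and 5.085 FPKM in the Ctrl and 4.03, 4.09 and 5.92 FPKM in the cKO replicates. The groups overlapped, since cKO replicate 3 was above Ctrl replicates 2 and 3. The means were 5.72 ± 1.27 and 4.68 ± 1.07 FPKM (SD, n = 3 each), and the log2 fold change of -0.24 had a confidence interval from -0.65 to 0.17 (standard error 0.17, limma adjusted p = 0.318). No alternative gave a call. The ratio of Npr3 to Npr1 was 1.42, 1.39 and 1.13 in Ctrl and 1.30, 1.37 and 1.80 in cKO, and these overlapped.

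**Figure D3:**
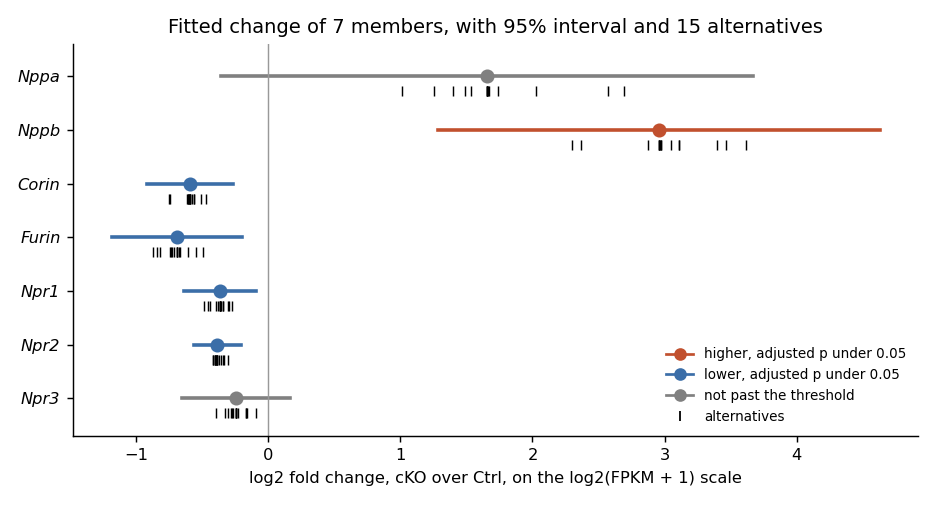
Log2 fold change of cKO over Ctrl on the log2(FPKM + 1) scale for the 7 tested members, with 95% confidence intervals from limma and, as ticks, the values under 15 alternatives. The interval of Nppb lies above 0, those of Corin, Furin, Npr1 and Npr2 lie below 0, and those of Nppa and Npr3 include 0.

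In order of mean FPKM, the Ctrl hearts ran Nppa, Nppb, Corin, Furin, Npr2, Npr3, Npr1 and Nppc. In cKO hearts Nppb stood before Nppa and the rest kept their places. In this order the ranges of Nppa and Nppb overlapped in both groups, those of Npr3 and Npr1 in Ctrl, and those of Furin and Npr2 in cKO. Within single hearts, Nppb was above Nppa in every cKO heart and Npr3 above Npr1 in every Ctrl heart. The order of Nppa and Nppb in Ctrl, and of Furin and Npr2 in cKO, changed from heart to heart. Summed by role, the 3 peptide genes came to 1448, 378 and 178 FPKM in Ctrl and 1270, 4479 and 2141 FPKM in cKO, with Ctrl replicate 1 above cKO replicate 1. The 3 receptor genes summed to 27.3, 22.1 and 22.9 FPKM in Ctrl and 17.9, 17.15 and 19.8 FPKM in cKO, and the 2 convertase genes to 59.1, 61.3 and 69.6 against 41.8, 32.6 and 48.02 FPKM, without overlap in either. The ratio of peptide to receptor RNA was 53.0, 17.1 and 7.765 in Ctrl and 70.9, 261 and 108 in cKO, which placed every cKO heart above every Ctrl heart. This ratio is made from the sums just given, so it is a description and no separate result.

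Non-overlap was frequent in this comparison. The groups did not overlap for 5 of the 7 tested members and for 51.2% of all genes tested, 24.8% as higher and 26.4% as lower. The summed markers of some lists were also lower in cKO. Endothelial markers (5 genes, 3 of them lower) summed to 109 to 127 FPKM in Ctrl and 71.2 to 86.0 FPKM in cKO. The 4 ventricular markers (2 lower) summed to 5984 to 7444 and 3548 to 5096 FPKM. Nearly all of that sum was Myl2 and Myl3, with Ctrl means of 3813 and 2683 FPKM. Irx4 (means 11.9 in Ctrl and 11.5 FPKM in cKO, limma adjusted p = 0.846) and Hey2 (0.979 and 0.666 FPKM, limma adjusted p = 0.0755) were not called. The ventricular calls depended on single hearts, as Myl2 lost its call without any 1 heart except cKO replicate 2 (limma adjusted p = 0.0691 to 0.1035) and Myl3 without cKO replicate 1 (0.0502). Fibroblast markers (5 genes, Dcn lower, lost without Ctrl replicate 3 at 0.0661) summed to 207 to 231.5 and 166 to 182 FPKM. Dcn (means 103.6 in Ctrl and 69.1 FPKM in cKO) and Dpt (85.3 and 72.2 FPKM, not called) weighed most in that sum. Pdgfra (4.77 and 4.61 FPKM), Tcf21 (4.70 and 4.07 FPKM) and Lum (24.9 and 26.3 FPKM) were not called, and Lum was slightly higher in cKO. For the endothelial, ventricular and fibroblast sums the groups did not overlap (exact permutation test, two-sided, p = 0.1 for each, the smallest possible). Cardiomyocyte, endocardial and macrophage markers overlapped between groups, with 2, 1 and 1 of 4 genes lower, and so did smooth muscle markers, with Acta2 higher. Of these, Nfatc1 of the endocardial list lost its call without any 1 heart (limma adjusted p = 0.0528 to 0.125), Acta2 without Ctrl replicate 2 or 3 or cKO replicate 1 or 2 (0.0755 to 0.133) and Csf1r of the macrophage list without Ctrl replicate 3 (0.0661). Tagln of smooth muscle and Hapln1 of endocardium were under 0.5 FPKM on average. The part of these markers in the changes of Corin, Furin, Npr1 and Npr2 was not tested.

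Among 9 further genes of peptide turnover, 5 were tested, of which 2 rose and 2 fell, against 33.3% of all tested genes called in either direction. For Ostn and Mme, which passed the filter through 1 group, the count is a description. Ostn encodes osteocrin, a peptide that binds the clearance receptor, and was almost silent in Ctrl, at 0.258, 0.0676 and 0.0581 FPKM. In cKO it was 12.6, 5.84 and 5.615 FPKM, a difference of 2.92 on the log2(FPKM + 1) scale. Ostn passed the filter only through the cKO hearts, where it is high, so it had to differ and its call is no support. Ide, an insulin-degrading protease that also degrades the atrial peptide, rose from 9.23 ± 0.969 to 12.5 ± 1.82 FPKM (limma adjusted p = 0.0440), and lost its call without any 1 heart except cKO replicate 1 (0.0647 to 0.130).

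The other two fell. Pcsk6, a convertase that can activate corin, was 14.1, 17.2 and 15.0 FPKM in Ctrl and 6.15, 7.196 and 9.18 FPKM in cKO, and its log2 fold change was -0.96 (standard error 0.14, limma adjusted p = 0.00365). Mme, the gene of neprilysin, which degrades natriuretic peptides, went from 1.05 ± 0.215 to 0.426 ± 0.0461 FPKM (log2 fold change -0.52). Its cKO level is under the filter of 0.5 FPKM, so it was tested through the Ctrl hearts, and with a minimum of 1 FPKM it was not tested, which left 1 turnover gene lower. Of the rest, Pcsk7 was not called, Pcsk5 and Dpp4 were below the filter, and Mep1a and Mep1b were listed at 0 in all hearts. The median log2 fold change of the 5 tested genes was -0.09.

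Downstream of the receptors, 15 of 21 genes of cyclic GMP signalling were tested, of which 2 rose and 3 fell, with a median log2 fold change of -0.25. That share of calls equals the 33.3% of all tested genes and is no result about the list. Over the alternatives the number lower ran from 2 to 5, and it was 5 without cKO replicate 2 and with no filter on low values. Pln encodes phospholamban, the inhibitor of the sarcoplasmic calcium pump and a substrate of cyclic nucleotide dependent kinases. It fell from 465 ± 30.5 to 173 ± 34.8 FPKM, with a log2 fold change of -1.43 (limma adjusted p = 0.00148). Vasp, an actin regulator and a classic substrate of cyclic GMP dependent kinase, rose from 11.15 ± 1.23 to 21.5 ± 2.71 FPKM (log2 fold change 0.89, limma adjusted p = 0.00271). Rgs4, a brake on G protein signals, fell from 4.465 ± 0.572 to 2.51 ± 0.326 FPKM (log2 fold change -0.64, limma adjusted p = 0.00599), and Pde3a, a phosphodiesterase that cyclic GMP inhibits, from 8.72 ± 0.735 to 5.61 ± 0.831 FPKM (log2 fold change -0.56, limma adjusted p = 0.00975). Prkg1, the kinase itself, which was named after its values were seen, rose from 1.46 ± 0.267 to 2.22 ± 0.183 FPKM (log2 fold change 0.39, limma adjusted p = 0.0257) and lost its call without Ctrl replicate 1, Ctrl replicate 2 or cKO replicate 3 (0.0663 to 0.07855).

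All 16 genes of the list of Nppa and Nppb promoter regulators were tested, of which 2 rose, 2 fell and 12 did not pass, with a median log2 fold change of -0.22. This is a smaller share of calls than the 33.3% over all tested genes, so the list did not stand out. Gata4, a cardiac GATA factor, rose from 26.04 ± 2.71 to 39.0 ± 7.14 FPKM (log2 fold change 0.56, limma adjusted p = 0.0244). The GATA letters in both promoters printed above are not particular to Gata4. Gata6, also in this list, was not called (log2 fold change -0.20, limma adjusted p = 0.1465). Tbx20, a T-box factor, rose from 9.71 ± 0.509 to 13.1 ± 1.87 FPKM (log2 fold change 0.39, limma adjusted p = 0.0297), and Tbx5, another T-box factor, fell from 10.4 ± 0.831 to 6.20 ± 1.40 FPKM (log2 fold change -0.67, limma adjusted p = 0.0143). Zfpm2, a GATA cofactor, fell from 2.26 ± 0.134 to 1.685 ± 0.234 FPKM (log2 fold change -0.28, limma adjusted p = 0.0492). Each of these calls was lost without at least 1 heart. Gata4 lost it without Ctrl replicate 1, Ctrl replicate 3 or cKO replicate 1 (limma adjusted p = 0.0550 to 0.0801), Tbx20 without any Ctrl heart (0.0681 to 0.0967), Tbx5 without Ctrl replicate 1 (0.05001) and Zfpm2 without any heart (0.0548 to 0.142).

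Nppb did not rise alone among genes known to respond to cardiac load. Of 10 such genes, 9 were tested, of which 6 rose and 1 fell (2 without cKO replicate 2), where 16.3% of all tested genes were higher and 17% lower. The median log2 fold change of the 9 was 1.68. The list was chosen with earlier results of these data known, so this count is a description. Fhl1, a LIM protein of the sarcomere, rose from 42.8 ± 6.999 to 253 ± 114 FPKM (log2 fold change 2.44, limma adjusted p = 0.00290) and Xirp2, an actin-binding protein, from 50.35 ± 10.8 to 229 ± 72.4 FPKM (log2 fold change 2.14, limma adjusted p = 0.00209). Acta1, skeletal actin, rose from 299 ± 62.5 to 1402 ± 872 FPKM (log2 fold change 2.07, limma adjusted p = 0.00994). Ankrd1, a stretch-responsive ankyrin repeat protein, rose from 570.2 ± 269 to 2270.0 ± 1169 FPKM (log2 fold change 2.00, limma adjusted p = 0.0156), and like Nppb it was highest in cKO replicate 2 and lowest in Ctrl replicate 3. The others that passed were Rcan1 and Myh7, which were higher, and Atp2a2, the sarcoplasmic calcium pump, which was lower (log2 fold change -1.06, limma adjusted p = 0.00164). These were named after their values were seen. Myh7 (log2 fold change 0.80, limma adjusted p = 0.0309) lost its call without Ctrl replicate 2, Ctrl replicate 3 or cKO replicate 1 (0.0635 to 0.0759).

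**Figure D4:**
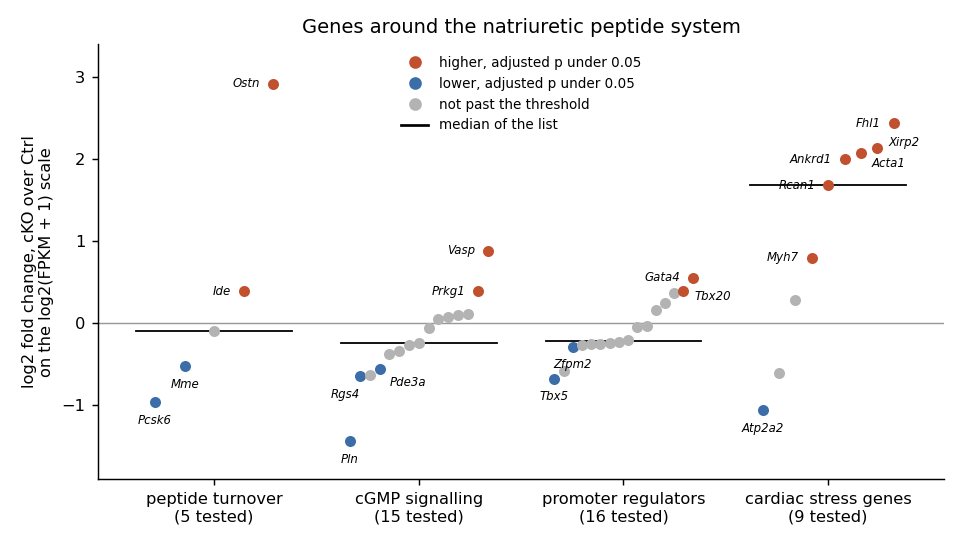
Log2 fold change of cKO over Ctrl on the log2(FPKM + 1) scale for the tested genes of 4 lists around the natriuretic peptides, 1 point per gene, with the median of each list as a line. Ostn stands at 2.92 among the turnover genes, Pln at -1.43 in the cyclic GMP list, and 6 of 9 cardiac stress genes lie above 0 past the threshold.

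The pattern of each peptide gene over the 6 hearts was compared with that of 5506 protein-coding genes that averaged 5 FPKM or more, as a description. Most like Nppb were Nolc1 (Pearson's r = 0.995), Ankrd1 (r = 0.994) and Cstf1 (r = 0.991), all of which were higher in cKO. A gene picked for its likeness to Nppb tends to share the group difference of Nppb, so these calls are no support. Nolc1 ranged only from 4.73 to 8.41 FPKM (limma adjusted p = 0.0458) and Cstf1 from 4.65 to 7.175 FPKM (limma adjusted p = 0.0449), far narrower than Nppb. Most like Nppa were Tor1b (r = 0.990), Stx4a (r = 0.962) and Ewsr1 (r = 0.958), none of which was called. Tor1b ranged only from 4.88 to 5.31 FPKM, so its likeness to Nppa is in the order of hearts and not in the size of the difference. The points are whole hearts, 3 of each genotype, which also differ in depth and atrial content.

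The genes flanking the Nppb and Nppa pair were also read. Clcn6, a chloride transporter gene after Nppa on the opposite strand, was higher in cKO (2.16 ± 0.0275 against 3.09 ± 0.334 FPKM, a log2 fold change of 0.37, limma adjusted p = 0.0154, called under 12 of 15 alternatives). On the other side, 2510039O18Rik before Nppb was 19.1 ± 0.743 and 21.9 ± 1.25 FPKM and did not pass (log2 fold change 0.18, limma adjusted p = 0.0967). Gm13054, which overlaps Nppa on the opposite strand, was at 0.794 ± 0.956 and 1.90 ± 1.39 FPKM (SD, n = 3 each), far below Nppa, and was not called.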

How the data were processed

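RNA was measured in 6 hearts, 3 per group, grouped by their titles. Per the labels and methods, the authors aligned reads with HISAT2 2.0.5, counted them per gene with featureCounts 1.5.0-p3 and deposited FPKM values. The table also gives the gene length, an other value, used as deposited. The processing notes name mm9, but 53499 of 54409 identifiers shared with GENCODE release M21 have identical coordinates, so positions are GRCm38. FPKM times length gave whole reads for 100% of values (within 0.01 of a read), which yielded the depth. Before deposit the values had been scaled between samples, with library sizes 0.913 to 0.980 (Ctrl) and 1.06 (cKO) times the read totals.

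The comparison used limma 3.58.1 in R 4.3.3 on log2(FPKM + 1), 2 groups without covariates, with an intensity trend and Benjamini-Hochberg adjustment over the 12944 genes averaging 0.5 FPKM or more. This scale understates changes of low genes. No pair of libraries of a group was alike within counting noise. The methods call the mice littermates, but which hearts shared a litter or a preparation is not given in the sources used here, so p-values measure the spread between these samples. Replicate numbers were not used as pairs in the main fit, since same-numbered hearts deviated together weakly or not at all. With so few hearts this check cannot exclude a shared litter or preparation. The authors tested with DESeq2 on their own read counts, which are not used here. The members, lists and rules were chosen with earlier results of these data known. By rule, named genes are all members, Mrps5, and in each list the genes past the threshold, or the 4 with the largest change where more than 4 passed. Prkg1, Rcan1, Myh7, Atp2a2, Gata6 and some marker and turnover genes were named outside this rule. For Nppa and Nppb the 3 most similar genes were added. Promoters are RefSeq sequences, and all members had one. A coding sequence of the peptides is not reported here. Alternatives were a pseudocount of 0.1, no filter, a minimum of 1 FPKM, 2 other scalings, voom on recovered reads, a replicate block, an atrial covariate and leaving out hearts.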

Additional observations from a re-analysis of the deposited data

How the results depend on the processing

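Over 15 alternatives for each of 7 members (105 comparisons), 81 kept direction and side of the threshold, 22 lost a call, 2 gained one (both for Nppa, without Ctrl replicate 1) and 0 reversed. Leaving out 1 heart gave 1 to 2 members higher and 1 to 3 lower, and 1396 to 1977 genes higher and 1423 to 2011 lower over all genes. Without Ctrl replicate 1 and cKO replicate 3, an alternative chosen after seeing the data, 2 members were higher and 1 lower, and 995 and 1019 genes. With no filter on low values, where 26855 genes are adjusted over, 0 members were higher (Nppb at an adjusted p of 0.0581) and 2 lower. Scaling without mtDNA-encoded genes left 2 members lower and gave 2649 genes higher and 1621 lower, so 62.0% of calls were higher against 48.9%, and the cause was not tested. The atrial covariate left 2 members lower. The atrial marker difference of -47.0 FPKM became 0.186 as a mean of log2(FPKM + 1), and ran from -252 to 277 FPKM when 1 heart was left out, positive without Ctrl replicate 1, cKO replicate 1 (85.6) or cKO replicate 2 (24.9).

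A replicate block gave 1 member higher and 4 lower, as without it, and 1874 genes higher and 1982 lower. Hearts with the same number deviated together weakly or not at all (r = -0.055, 0.175 and -0.015 over 12944 genes), and 2 of 6 hearts correlated best with their own number. A change of Nppc was limited by its read counts, and that of Npr3 by the spread over 3 hearts per group.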
